A study of Homo sapiens with 16 samples.

Results

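The replication-dependent histone genes were followed in 4 human T-cell acute lymphoblastic leukaemia (T-ALL) lines given PD-0332991, an inhibitor of the cyclin D kinases CDK4 and CDK6, or the vehicle DMSO. They were taken by name, as every probe set whose platform annotation gave exactly 1 gene symbol of the series H1-1 to H1-6, H2AC, H2BC, H3C or H4C with a number. This gave 48 of the 54675 probe sets on the array, for 42 genes, of which 40 lie on chromosome 6 and 2 (H2AC25 and H2BC21) on chromosome 1. A further 20 probe sets named several such genes and were kept apart. Of the 48 probe sets, 30 for 27 genes were bright enough to be tested, and 18 were dim.

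These genes supply the histones that package newly copied DNA. H2A, H2B, H3 and H4 form the nucleosome core and H1 binds the linker DNA. In dividing cells their mRNAs are made in S phase, at histone locus bodies organised by NPAT, a substrate of cyclin E with CDK2, and they end in a stem-loop bound by SLBP in place of a poly(A) tail. Some of them are known in human cells to make polyadenylated mRNAs as well.

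The arrays were 16 Affymetrix Human Genome U133 Plus 2.0 arrays of the cell lines CEM, CUTL1, DND41 and Jurkat, all labelled as T-ALL cells. Each line had 2 arrays of cells given 1 uM PD-0332991 and 2 of cells given DMSO for 15 h, so that each treatment had 8 arrays. All groups shared the same RPMI medium with FCS, Glutamax and Pen/Strep and are established lines grown in culture, not primary leukaemia cells. Whether replicate arrays stem from separate cultures is not stated in the labels, and p-values therefore cover the array-to-array spread alone, possibly a technical one. With 2 arrays a group, that number sets the precision. Levels are log2 intensities of 1 probe set and are set only against the same probe set in other arrays, since probe sets differ in how strongly they bind.

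Replicate arrays correlated at 0.990 to 0.997 over the 30004 probe sets tested. All 10 T-lineage marker genes looked at were at or above the dim level of 4.88 (log2) in all 8 groups, as were 2 of 4 B-cell genes (CD79A and CD79B, but not MS4A1 or PAX5) and 1 of 4 myeloid genes (CSF1R, but not CD14, LYZ or MPO). So were the erythroid and megakaryocyte genes HBB and PF4, but not ALAS2. The fibroblast and endothelial genes COL1A1, PECAM1 and VWF were too, but not COL1A2 or COL3A1. Each marker gene was read by its brightest probe set. Of the T-lineage genes 8 were called higher and 0 lower on average in PD-0332991 arrays (median change 0.35), against 20.3% and 17.6% of all probe sets tested and their median of 0.03. With 1 probe set per gene the shares were 26.6% and 19.9% of all genes. CD79A (0.25, adjusted p = 0.00653), PECAM1 (0.35, adjusted p = 0.00253) and ALAS2 (0.25, adjusted p = 0.0121) were called higher. CD79B, CSF1R, HBB, PF4, COL1A1 and VWF were not called. The part of these genes in the histone results was not tested. The dim level is the median of all deposited values, and a probe set was tested if the 4 arrays of at least 1 line averaged at or above it.

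The promoters of these genes carry the elements by which their types differ. Of these promoters 4 are shown, because their genes were called in the same direction in each line. They are H2AC6, H2BC12 and H2BC21, called higher, and H3C2, called lower. Each is the 250 bases before the start in RefSeq's annotation of GRCh38.p14, printed 5′ to 3′ on the gene's strand: chr6:26123922-26124171, plus strand for H2AC6, chr6:27146856-27147105, minus strand for H2BC12, chr1:149886683-149886932, minus strand for H2BC21 and chr6:26032100-26032349, minus strand for H3C2. Capitals mark the octamer ATTTGCAT and the TATA element TATAAA, each on either strand. In H2BC12 a pair of TATA matches on opposite strands overlap.
H2AC6: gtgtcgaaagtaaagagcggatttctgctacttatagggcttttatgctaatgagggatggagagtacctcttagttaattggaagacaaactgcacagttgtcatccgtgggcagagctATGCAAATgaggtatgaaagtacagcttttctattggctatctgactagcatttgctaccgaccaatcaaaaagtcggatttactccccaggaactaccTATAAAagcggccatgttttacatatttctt
H2BC12: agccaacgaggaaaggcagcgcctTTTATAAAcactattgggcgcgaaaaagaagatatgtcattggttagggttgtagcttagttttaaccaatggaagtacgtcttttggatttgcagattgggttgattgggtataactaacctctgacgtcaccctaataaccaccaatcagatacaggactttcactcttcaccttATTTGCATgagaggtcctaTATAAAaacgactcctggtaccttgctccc
H2BC21: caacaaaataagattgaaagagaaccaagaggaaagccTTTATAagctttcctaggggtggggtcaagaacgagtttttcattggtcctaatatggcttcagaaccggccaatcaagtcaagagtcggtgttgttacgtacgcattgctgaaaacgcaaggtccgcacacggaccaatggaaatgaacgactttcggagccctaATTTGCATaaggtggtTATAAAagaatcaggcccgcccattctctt
H3C2: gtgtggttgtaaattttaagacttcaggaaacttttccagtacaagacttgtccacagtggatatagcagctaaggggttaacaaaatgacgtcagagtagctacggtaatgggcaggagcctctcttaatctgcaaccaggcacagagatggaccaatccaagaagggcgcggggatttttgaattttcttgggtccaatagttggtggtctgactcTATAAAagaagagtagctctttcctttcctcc

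Of the 42 genes 40 had a promoter in the RefSeq set. The octamer was in 6 of 8 H2A and 10 of 13 H2B promoters, and in 0 of 6 H1, 0 of 6 H3 and 0 of 7 H4 promoters. Of the 27305 genes given there 2.03% held it. AAACACA, the H1 box, was in 6 of 6 H1 promoters and in 0 of the other types, against 5.95% of all genes. TATAAA was in 3 of 6 H1, 5 of 8 H2A, 11 of 13 H2B, 4 of 6 H3 and 4 of 7 H4 promoters, against 13% of all genes. CCAAT, read on both strands like the other motifs, was in every H1, H2A, H2B and H3 promoter found but in 2 of 7 H4 promoters, and in 37.0% of all genes. The octamer was in 3 of 7 promoters of genes called higher on average, 3 of 10 of those called lower and 4 of 9 of those not called. The 3 called higher were H2AC6, H2BC12 and H2BC21, all printed above. The octamer was not in the promoters of H2AC25, H2BC5, H3C6 and H4C8, also called higher. Of these, H2AC25, H2BC5 (209911_x_at) and H4C8 (232035_at) also had PD-0332991 arrays above DMSO arrays in every line, without a call in each.

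The main comparison asked how CDK4 and CDK6 inhibition moved these mRNAs on average over the 4 lines. The family did not move as a block. Of the 30 tested probe sets 7 rose and 11 fell (limma, adjusted p under 0.05 over 30004 probe sets), and their median change was 0.01, against 0.03 over all probe sets tested. Over all probe sets tested 20.3% were called higher and 17.6% lower. All 7 rises were of at least 0.5, in H2AC6, H2AC25, H2BC5, H2BC12, H2BC21, H3C6 and H4C8, and 2 of the falls were, in H3C2 and H3C7. In DMSO, H3C6 was below the dim level in all 4 lines, H2BC21 in 3 and H4C8 (232035_at) in CEM and Jurkat. The sizes of these rises were therefore not well measured, and H3C6 was tested only through its PD-0332991 arrays. Without the DND41 arrays, a choice made after the data were seen, the counts were again 7 and 11, with 21.9% and 15.2% of all probe sets called higher and lower. With each line as 1 replicate 6 rose and 3 fell, against 6.2% and 7.73% of all probe sets. With the brightest probe set of each gene alone 4 rose and 11 fell, against 26.6% and 19.9% of the 13530 genes tested. In these bulk samples fewer cells making an mRNA and less of it per cell cannot be told apart.

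**Figure D1:**
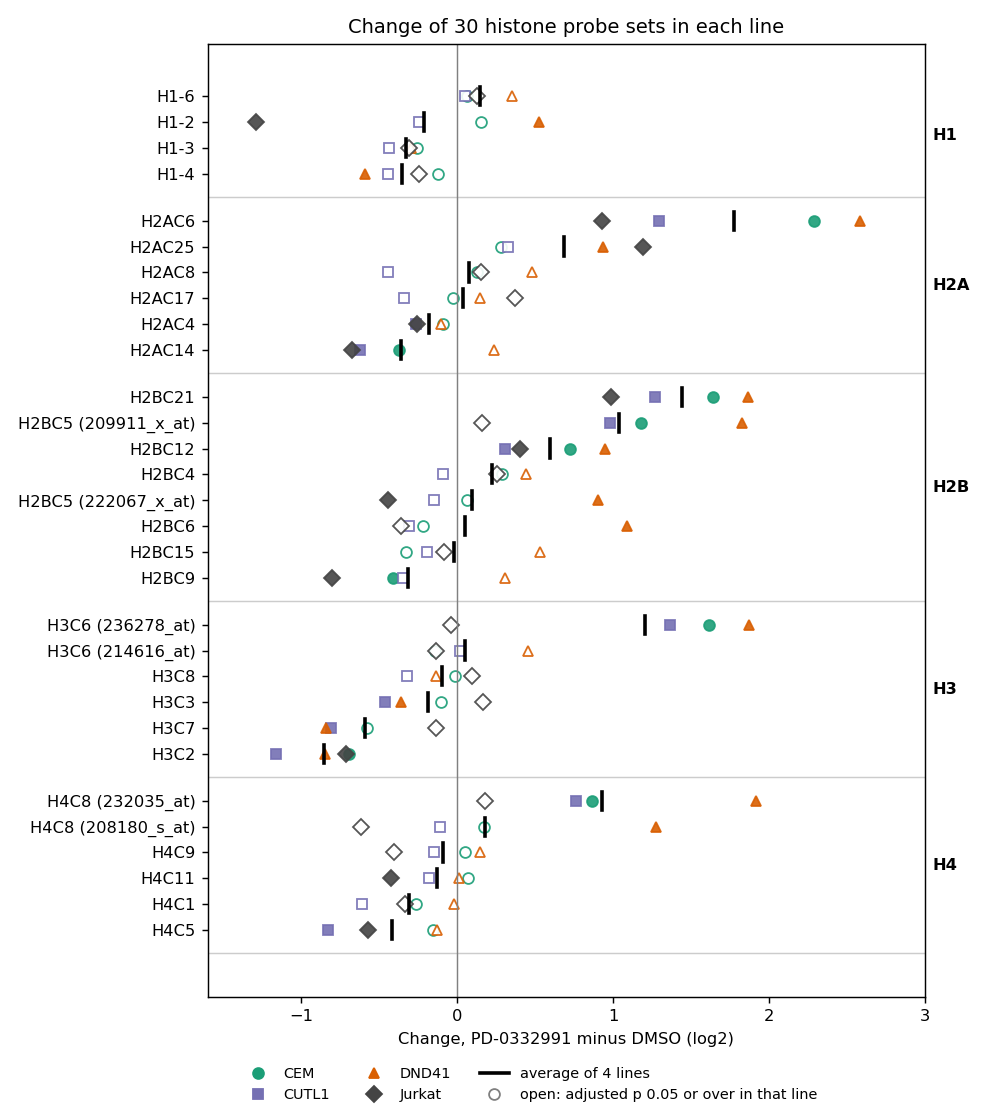
Change (PD-0332991 minus DMSO, log2) of the 30 tested histone probe sets with 1 gene symbol, grouped by histone type, in CEM, CUTL1, DND41 and Jurkat, with the average of the 4 lines as a bar and open symbols where the adjusted p in that line was 0.05 or over. H2AC6 and H2BC21 lie to the right of 0 in every line, H3C2 lies to the left in every line, and the DND41 points of H2B probe sets are all to the right of 0.

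Among the linker histones, 4 of 7 probe sets were tested, and 0 rose and 3 fell on average. H1-4 fell by 0.35 (SE 0.10), H1-3 fell by 0.33 (SE 0.08) and H1-2 fell by 0.22 (SE 0.08). H1-6, a testis-type H1, was at 0.15 (adjusted p = 0.110) and was not called.

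The H1-2 probe set read 8.35 and 8.37 in PD-0332991 against 8.42 and 7.99 in DMSO in CEM, and 9.20 and 9.27 in PD-0332991 against 9.28 and 9.69 in DMSO in CUTL1. It read 10.07 and 10.00 in PD-0332991 against 9.41 and 9.61 in DMSO in DND41, and 6.38 and 6.26 in PD-0332991 against 7.71 and 7.52 in DMSO in Jurkat. PD-0332991 arrays were above DMSO arrays in DND41 and below them in CUTL1 and Jurkat, and the arrays overlapped in CEM. The changes were 0.16 in CEM, -0.25 in CUTL1, 0.53 in DND41 and -1.29 in Jurkat, with an adjusted p of 0.0337 in DND41 and 0.000183 in Jurkat, and they differed between lines (F test, adjusted p = 0.00386). The average fall had an adjusted p of 0.0487, was lost without any 1 of 12 single arrays, and without the DND41 arrays was -0.46 (adjusted p = 0.00411). The DND41 call was lost without any 1 of the 4 DND41 arrays.

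Of the H2A genes, 6 of 10 probe sets were tested, and 2 rose and 2 fell on average. H2AC6 had the largest change of all 30, at 1.77 (SE 0.07), a 3.42-fold rise (n = 8 arrays per treatment, adjusted p = 6.79e-09). H2AC25 rose by 0.68 (SE 0.05, 1.61-fold). H2AC14 fell by 0.36 (SE 0.04) and H2AC4 fell by 0.18 (SE 0.04). H2AC17 at 0.04 (SE 0.12) and H2AC8 at 0.08 (SE 0.13) were not called.

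The H2AC6 probe set read 8.17 and 7.96 in PD-0332991 against 5.97 and 5.58 in DMSO in CEM, and 8.91 and 8.89 in PD-0332991 against 7.46 and 7.74 in DMSO in CUTL1. It read 10.91 and 11.17 in PD-0332991 against 8.38 and 8.54 in DMSO in DND41, and 6.18 and 6.02 in PD-0332991 against 5.11 and 5.23 in DMSO in Jurkat. In every line both PD-0332991 arrays lay above both DMSO arrays. The rise was 2.29 in CEM, 1.30 in CUTL1, 2.58 in DND41 and 0.93 in Jurkat, called in each line, and its size differed between lines (F test, adjusted p = 0.00263). It was larger in DND41 than in CUTL1 (CUTL1 minus DND41, -1.29, SE 0.21, adjusted p = 0.00993) and than in Jurkat (DND41 minus Jurkat, 1.65, SE 0.21, adjusted p = 0.00229).

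The H2AC25 probe set read 5.42 and 5.27 in PD-0332991 against 5.19 and 4.93 in DMSO in CEM, and 8.56 and 8.55 in PD-0332991 against 8.22 and 8.24 in DMSO in CUTL1. It read 9.12 and 8.87 in PD-0332991 against 8.0 and 8.11 in DMSO in DND41, and 8.39 and 8.40 in PD-0332991 against 7.17 and 7.24 in DMSO in Jurkat. Again no DMSO array reached a PD-0332991 array of its line. The changes were 0.28 in CEM, 0.33 in CUTL1, 0.94 in DND41 and 1.19 in Jurkat, and those of CEM and CUTL1 were not called (adjusted p = 0.0941 and 0.0558). The lines differed (F test, adjusted p = 0.00977). The change of CEM was smaller than that of Jurkat in H2AC25 (CEM minus Jurkat, -0.91, SE 0.15, adjusted p = 0.0153) and larger in H2AC6 (CEM minus Jurkat, 1.36, SE 0.21, adjusted p = 0.00902). A second H2AC25 probe set was dim.

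H2AC14, by contrast, fell. Its changes were -0.37 in CEM, -0.62 in CUTL1, 0.24 in DND41 and -0.68 in Jurkat, called lower in CEM, CUTL1 and Jurkat and not called in DND41 (adjusted p = 0.0801), and they differed between lines (F test, adjusted p = 0.00546). Its probe set bears the suffix _x_at, which Affymetrix gives to sets with probes that may also bind other sequences.

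**Figure D2:**
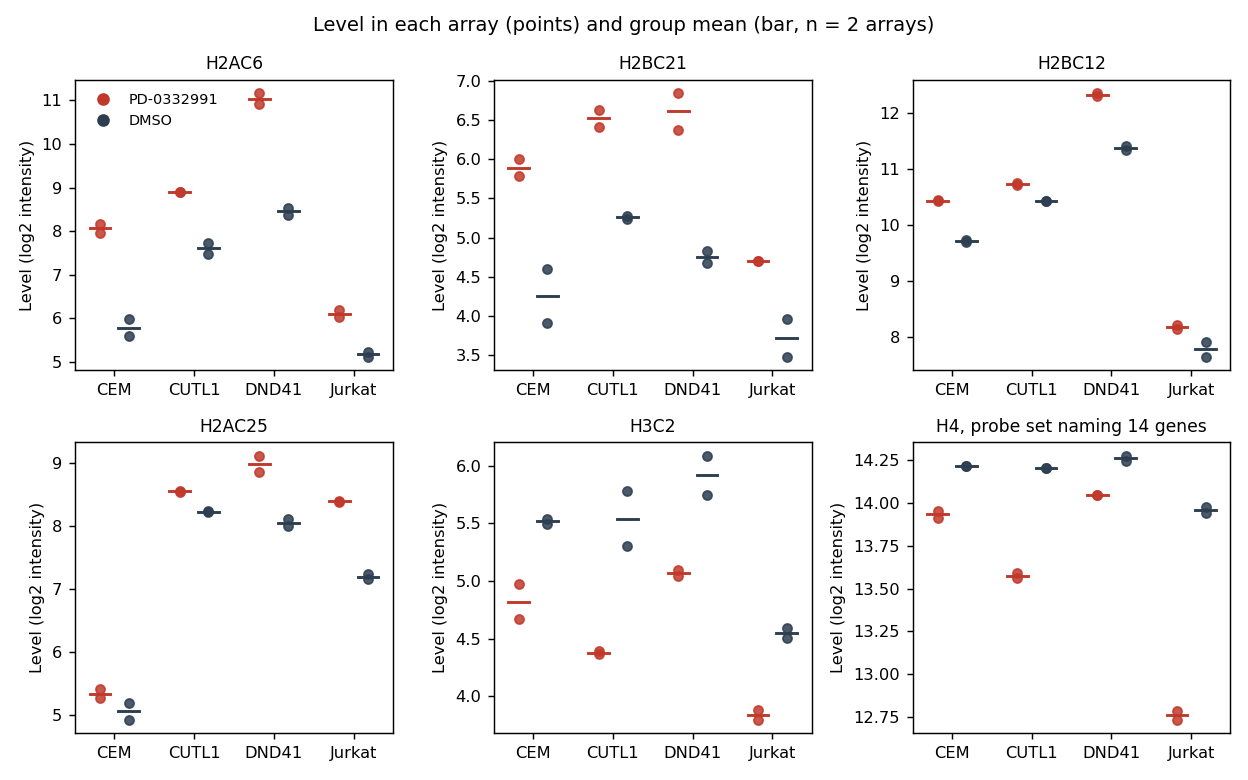
Level (log2 intensity) of 5 histone probe sets with 1 gene symbol and of the H4 probe set naming 14 genes in each of the 16 arrays, with PD-0332991 left of DMSO in each line and a bar at the mean of 2 arrays. H2AC6, H2BC21, H2BC12 and H2AC25 are higher and H3C2 and the H4 probe set lower in both PD-0332991 arrays of every line.

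Of the 14 H2B probe sets 8 were tested, and 3 rose and 1 fell on average. H2BC21 rose by 1.44 (SE 0.11, dim in most DMSO arrays), the 209911_x_at probe set of H2BC5 by 1.04 (SE 0.06, 2.05-fold) and H2BC12 by 0.59 (SE 0.04, 1.51-fold). H2BC9 fell by 0.32 (SE 0.06). The other 4 were not called, among them H2BC4 at 0.22 (adjusted p = 0.105) and H2BC15 at -0.02 (adjusted p = 0.900).

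The H2BC21 probe set read 5.78 and 6.0 in PD-0332991 against 4.60 and 3.90 in DMSO in CEM, and 6.42 and 6.63 in PD-0332991 against 5.24 and 5.27 in DMSO in CUTL1. It read 6.38 and 6.85 in PD-0332991 against 4.83 and 4.67 in DMSO in DND41, and 4.70 and 4.69 in PD-0332991 against 3.96 and 3.47 in DMSO in Jurkat. Each line's PD-0332991 arrays were above its DMSO arrays, but the DMSO arrays of CEM, DND41 and Jurkat and all Jurkat arrays were below the dim level, so the size of the rise rests on dim values. The changes of 1.64 in CEM, 1.27 in CUTL1, 1.87 in DND41 and 0.98 in Jurkat were called in each line, and a difference between lines was not called (F test, adjusted p = 0.236). The Jurkat call was lost without DMSO replicate 2 or either PD-0332991 array of that line.

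The H2BC5 probe set 209911_x_at read 8.01 and 7.95 in PD-0332991 against 6.90 and 6.70 in DMSO in CEM, and 8.63 and 8.62 in PD-0332991 against 7.65 and 7.63 in DMSO in CUTL1. It read 10.12 and 10.56 in PD-0332991 against 8.54 and 8.48 in DMSO in DND41, and 6.31 and 6.15 in PD-0332991 against 6.10 and 6.04 in DMSO in Jurkat. In each line PD-0332991 arrays were above DMSO arrays, narrowly so in Jurkat. The changes were 1.18 in CEM, 0.98 in CUTL1, 1.83 in DND41 and 0.16 in Jurkat, that of Jurkat was not called (adjusted p = 0.461), and the lines differed (F test, adjusted p = 0.00216).

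The H2BC12 probe set read 10.43 and 10.45 in PD-0332991 against 9.75 and 9.69 in DMSO in CEM, and 10.73 and 10.76 in PD-0332991 against 10.44 and 10.44 in DMSO in CUTL1. It read 12.36 and 12.30 in PD-0332991 against 11.42 and 11.35 in DMSO in DND41, and 8.16 and 8.22 in PD-0332991 against 7.65 and 7.92 in DMSO in Jurkat. In every line both PD-0332991 arrays were above both DMSO arrays. The changes were 0.72 in CEM, 0.30 in CUTL1, 0.95 in DND41 and 0.40 in Jurkat, all called, with an adjusted p from 3.92e-05 in DND41 to 0.0320 in CUTL1, and they differed between lines (F test, adjusted p = 0.0292). The CUTL1 call was lost with arrays centred on their medians and without any 1 of its 4 arrays, and the Jurkat call without Jurkat DMSO replicate 1 or PD-0332991 replicate 2.

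In DND41 all 8 H2B probe sets tested were above 0, from 0.31 (H2BC9, not called) to 1.87 (H2BC21). Of them 5 were called, against 7.55% of all probe sets called higher in DND41. The 8 stand for 7 genes, and those of H2BC5, H2BC6 and H2BC9 bear the suffix _x_at. They may therefore share signal, which was not tested. The H2BC6 differences were -0.22 in CEM, -0.31 in CUTL1, 1.09 in DND41 and -0.36 in Jurkat, called in DND41 alone (adjusted p = 0.000507), and they differed between lines (F test, adjusted p = 0.00546). Without the DND41 arrays its average was -0.30 (adjusted p = 0.0236), against 0.05 with them. The H2BC9 differences were -0.42 in CEM, -0.35 in CUTL1, 0.31 in DND41 and -0.81 in Jurkat and also differed between lines (F test, adjusted p = 0.0111).

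The H3 genes fell more often than they rose. Of 8 probe sets 6 were tested, and 1 rose and 3 fell on average. H3C2 fell by 0.86 (SE 0.08, 1.81-fold, adjusted p = 5.17e-06), H3C7 fell by 0.59 (SE 0.11, 1.51-fold) and H3C3 fell by 0.19 (SE 0.04). The 236278_at probe set of H3C6 was called higher, at 1.20 (SE 0.05), against DMSO levels below the dim level. H3C8 at -0.10 and the other H3C6 probe set at 0.05 were not called.

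The H3C2 probe set read 4.97 and 4.67 in PD-0332991 against 5.50 and 5.54 in DMSO in CEM, and 4.36 and 4.39 in PD-0332991 against 5.30 and 5.78 in DMSO in CUTL1. It read 5.09 and 5.04 in PD-0332991 against 5.75 and 6.09 in DMSO in DND41, and 3.88 and 3.79 in PD-0332991 against 4.60 and 4.51 in DMSO in Jurkat. It was the only one of the 30 with both PD-0332991 arrays below both DMSO arrays in every line. The changes were -0.70 in CEM, -1.16 in CUTL1, -0.85 in DND41 and -0.72 in Jurkat, called in each line, and a difference between lines was not called (F test, adjusted p = 0.372). The Jurkat arrays, both CUTL1 PD-0332991 arrays and 1 CEM PD-0332991 array were below the dim level. The CEM call was lost without CEM DMSO replicate 2 or PD-0332991 replicate 2, and the Jurkat call without Jurkat DMSO replicate 1 or PD-0332991 replicate 2.

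The H3C7 probe set read 6.12 and 5.81 in PD-0332991 against 6.80 and 6.29 in DMSO in CEM, and 4.75 and 5.36 in PD-0332991 against 5.84 and 5.89 in DMSO in CUTL1. It read 5.36 and 5.28 in PD-0332991 against 6.04 and 6.29 in DMSO in DND41, and 3.98 and 4.4 in PD-0332991 against 4.26 and 4.4 in DMSO in Jurkat. PD-0332991 arrays were below DMSO arrays in CEM, CUTL1 and DND41, and the dim Jurkat arrays overlapped. The changes were -0.58 in CEM, -0.81 in CUTL1, -0.84 in DND41 and -0.14 in Jurkat, called in CUTL1 and DND41. The CUTL1 call was lost without either of its DMSO arrays or PD-0332991 replicate 1, and the DND41 call without its DMSO replicate 2 or either PD-0332991 array.

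The H3C6 probe set 236278_at read 5.56 and 5.32 in PD-0332991 against 3.82 and 3.83 in DMSO in CEM, and 5.93 and 5.91 in PD-0332991 against 4.59 and 4.52 in DMSO in CUTL1. It read 5.92 and 6.04 in PD-0332991 against 4.13 and 4.08 in DMSO in DND41, and 3.91 and 3.76 in PD-0332991 against 3.74 and 4.01 in DMSO in Jurkat. PD-0332991 arrays were above DMSO arrays in CEM, CUTL1 and DND41 and overlapped them in Jurkat. All DMSO arrays were below the dim level, and the probe set passed the filter only through its PD-0332991 arrays, so the sizes of the changes and of their differences between lines rest on dim values. The rise was called in CEM, CUTL1 and DND41, at 1.62, 1.37 and 1.87, while Jurkat was at -0.04 (adjusted p = 0.845). The F test between lines gave an adjusted p of 0.000443, and the contrasts of CEM, CUTL1 and DND41 with Jurkat gave 0.000447, 0.00231 and 0.000368. These calls and p-values are a description alone, since the probe set was tested only because its PD-0332991 arrays were high.

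The H3C8 probe set, shown as the H3 member with the highest mean signal, read 6.37 and 6.39 in PD-0332991 against 6.28 and 6.52 in DMSO in CEM, and 6.18 and 6.13 in PD-0332991 against 6.50 and 6.47 in DMSO in CUTL1. It read 6.25 and 6.20 in PD-0332991 against 6.24 and 6.49 in DMSO in DND41, and 5.84 and 5.67 in PD-0332991 against 5.81 and 5.52 in DMSO in Jurkat. The arrays of the treatments overlapped in CEM, DND41 and Jurkat, and PD-0332991 arrays were below in CUTL1, where the change of -0.33 was not called (adjusted p = 0.0843). The H3C3 differences were -0.10 in CEM, -0.46 in CUTL1, -0.36 in DND41 and 0.17 in Jurkat, called lower in CUTL1 and DND41, and they differed between lines (F test, adjusted p = 0.0280).

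Of the H4 genes, 6 of 9 probe sets were tested, and 1 rose and 2 fell on average. The 232035_at probe set of H4C8 rose by 0.93 (SE 0.07, 1.91-fold), H4C5 fell by 0.42 (SE 0.08) and H4C1 fell by 0.31 (SE 0.11, adjusted p = 0.0465). H4C11 at -0.13, H4C9 at -0.09 and the other H4C8 probe set at 0.18 were not called.

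The H4C8 probe set 232035_at read 5.45 and 5.31 in PD-0332991 against 4.52 and 4.50 in DMSO in CEM, and 6.0 and 5.99 in PD-0332991 against 5.05 and 5.41 in DMSO in CUTL1. It read 7.37 and 7.51 in PD-0332991 against 5.36 and 5.69 in DMSO in DND41, and 4.46 and 4.33 in PD-0332991 against 4.14 and 4.29 in DMSO in Jurkat. Each line's PD-0332991 arrays lay above its DMSO arrays, although all Jurkat arrays and both CEM DMSO arrays were below the dim level. The changes were 0.87 in CEM, 0.76 in CUTL1, 1.92 in DND41 and 0.18 in Jurkat, that of Jurkat was not called, and the lines differed (F test, adjusted p = 0.00248). DND41 exceeded CEM (CEM minus DND41, -1.05, SE 0.19, adjusted p = 0.0208).

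The H4C11 probe set, shown as the H4 member with the highest mean signal, read 9.05 and 8.89 in PD-0332991 against 8.90 and 8.90 in DMSO in CEM, and 9.0 and 9.0 in PD-0332991 against 9.01 and 9.35 in DMSO in CUTL1. It read 8.83 and 8.71 in PD-0332991 against 8.69 and 8.83 in DMSO in DND41, and 6.53 and 6.71 in PD-0332991 against 6.99 and 7.12 in DMSO in Jurkat. PD-0332991 arrays were below DMSO arrays in CUTL1 and Jurkat, and the arrays overlapped in CEM and DND41. The changes were 0.07 in CEM, -0.18 in CUTL1, 0.01 in DND41 and -0.43 in Jurkat, called in Jurkat alone (adjusted p = 0.0250). The Jurkat call was lost without either DMSO array or PD-0332991 replicate 1 of that line, and the average was called without CUTL1 DMSO replicate 1, at -0.17.

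Within each line H2AC6, H2BC12 and H2BC21 rose and H3C2 fell. In CEM 6 of the 30 probe sets rose and 3 fell, against 11.4% and 8.13% of all probe sets called higher and lower, and the median change was 0.02. The 6 were H2AC6, H2BC21, H2BC12, H2BC5 (209911_x_at), H3C6 (236278_at) and H4C8 (232035_at), and the 3 were H3C2, H2BC9 and H2AC14. H3C6 is counted here and in the lines below although it passed the filter only through its PD-0332991 arrays. The count of falls was 0 without CEM DMSO replicate 2 and 1 without either CEM PD-0332991 array. In CUTL1 6 rose, the probe sets just named, and 6 fell, against 9.26% and 10.1% of all probe sets, with a median of -0.22. The falls were those of H3C2, H4C5, H3C7, H2AC14, H3C3 and H2AC4.

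In DND41 11 rose and 4 fell, against 7.55% and 14.7% of all probe sets, with a median of 0.39. H1-2, H2AC25, H2BC6, the second H2BC5 probe set and the second H4C8 probe set were called higher there beside those called in CEM. The falls were those of H3C2, H3C7, H1-4 and H3C3, with 1 left without DMSO replicate 2 and 2 without either PD-0332991 array. The 18S ribosomal RNA control probe set, a sign of RNA makeup, read 12.45 and 12.75 in the PD-0332991 arrays of DND41, against 13.21 and 13.26 in its DMSO arrays, and 12.80 and 12.67 against 13.28 and 13.17 in CUTL1. In CEM it read 13.21 and 13.08 against 13.25 and 12.56, and in Jurkat 13.56 and 13.30 against 13.48 and 13.29. Its part in the histone results was not tested. Over all 16 arrays it did not pass a two-sided exact permutation test within lines (p = 0.177, adjusted over 3 quality measures 0.532).

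In Jurkat 4 rose and 8 fell, against 10.2% and 8.49% of all probe sets, with a median of -0.14. The rises were those of H2AC25, H2BC21, H2AC6 and H2BC12, with 2 left without PD-0332991 replicate 2. The falls were those of H1-2, H2BC9, H3C2, H2AC14, H4C5, H2BC5 (222067_x_at), H4C11 and H2AC4, and numbered 3 without DMSO replicate 1, 5 without DMSO replicate 2 and 4 without either PD-0332991 array.

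The separate arrays show how far the treatments lay apart. Both PD-0332991 arrays were above both DMSO arrays for 9 of 30 probe sets in CEM, 7 in CUTL1, 19 in DND41 and 9 in Jurkat, where 32.6%, 33.7%, 28% and 34.2% of all probe sets were. They were below for 11, 14, 4 and 13, where 27.2%, 24.3%, 32.9% and 25.2% of all probe sets were. In every line at once 6 were above, those of H2AC6, H2AC25, H2BC12, H2BC21, H2BC5 (209911_x_at) and H4C8 (232035_at), and 1, that of H3C2, was below, where 8.12% and 9.01% of all probe sets were.

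The lines differed in their response for 13 of the 30 probe sets (F test on 3 degrees of freedom, adjusted p under 0.05), 43.3%, against 6.19% of all probe sets tested. The 13 count H3C6 (236278_at), which was tested only through its PD-0332991 arrays. By type these were 1 of 4 for H1, 3 of 6 for H2A, 5 of 8 for H2B, 2 of 6 for H3 and 2 of 6 for H4. Of the 6 pairs of lines, DND41 and Jurkat differed for the most members: the change was higher in DND41 for 11 and lower for 1, H3C3, against 1.52% and 3.52% of all probe sets. The DND41 change also exceeded that of CUTL1 for 8 probe sets and that of CEM for 6, against 1.66% and 1.27%, with 0 the other way (1.45% and 4.43%). CEM exceeded Jurkat for 4 and fell short of it for 1 (0.797% and 0.13%). CUTL1 exceeded Jurkat for 2 and fell short for 2 (0.42% and 0.8%), and CEM exceeded CUTL1 for 1 and fell short for 0 (1.83% and 0.493%). H3C6 (236278_at) is among the probe sets by which CEM, CUTL1 and DND41 exceeded Jurkat, and counts there as a description alone.

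Levels under DMSO already differed between lines for 26 of the 30 probe sets, 86.7%, against 63.4% of all probe sets tested. Jurkat had the lowest DMSO level for 26 of 30, and was the lowest line for 26.2% of all probe sets tested. DND41 was highest for 15, CEM for 8, CUTL1 for 6 and Jurkat for 1, against 23.1%, 23.8%, 25.9% and 27.2% of all probe sets tested. Against each probe set's own mean over the 4 lines, the median DMSO level was 0.01 in CEM, 0.23 in CUTL1, 0.41 in DND41 and -0.70 in Jurkat. For H2BC12, for example, DMSO arrays averaged 9.72 in CEM, 10.44 in CUTL1, 11.39 in DND41 and 7.79 in Jurkat (F test, adjusted p = 1.42e-10), and each line's 2 arrays were closer to each other than to those of any other line.

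**Figure D3:**
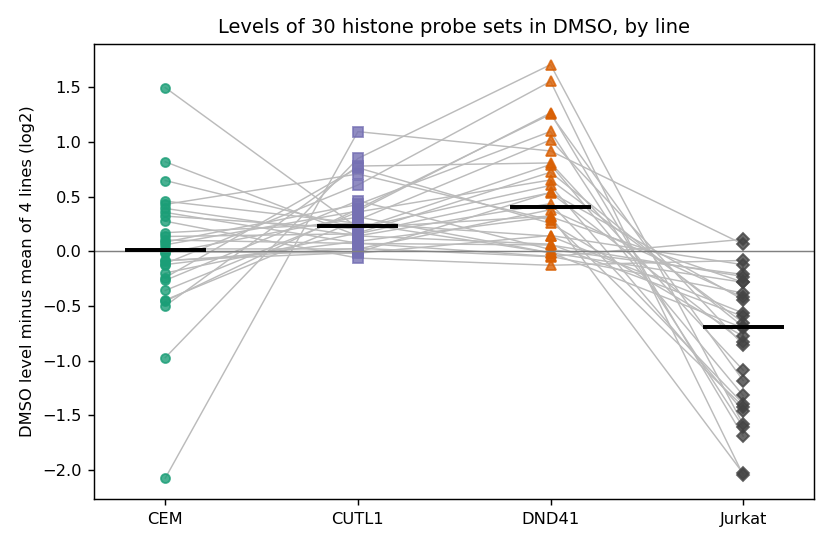
DMSO level of each of the 30 tested histone probe sets relative to its mean over the 4 lines (log2), with a line joining the points of a probe set and a bar at the median. The medians are 0.01 in CEM, 0.23 in CUTL1, 0.41 in DND41 and -0.70 in Jurkat.

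Probe sets of the same gene differed in H2BC5 and H4C8. H2BC5, H3C6 and H4C8 each had 2 tested probe sets, and in each the probe set described above changed by more than the other. The change of 209911_x_at exceeded that of 222067_x_at, the other H2BC5 probe set, by 0.944 on average over the 4 lines (two-sided exact permutation within lines, adjusted p = 0.00231 over 3 genes). For H4C8 the difference was 0.750 (adjusted p = 0.00231), and 0.00154 is the smallest unadjusted p that the 1296 assignments allow. The difference was above 0 in all 4 lines for both genes, from 0.602 to 1.13 for H2BC5 and 0.640 to 0.875 for H4C8. For H3C6 it was 1.16 on average and 0.0913 to 1.76 by line, a description alone, since 236278_at was below the dim level in all DMSO arrays. Changes of 222067_x_at were 0.06 in CEM, -0.15 in CUTL1, 0.91 in DND41 and -0.45 in Jurkat, called higher in DND41 and lower in Jurkat. Those of the H4C8 probe set 208180_s_at were 0.17 in CEM, -0.11 in CUTL1, 1.28 in DND41 and -0.62 in Jurkat, called in DND41 alone. Those of the H3C6 probe set 214616_at were -0.14 in CEM, 0.02 in CUTL1, 0.45 in DND41 and -0.13 in Jurkat, with none called.

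The platform annotation lists a sequence record for most probe sets, and the changes can be laid out by its kind, a split made after the values were seen. Where the record was a RefSeq mRNA, 34 probe sets of which 20 were tested, 1 rose (H2BC21), 10 fell and 9 did not pass (median -0.16). Where it was another GenBank record or none was listed, 14 probe sets of which 10 were tested, 6 rose, 1 fell (H1-2) and 3 did not pass (median 0.64). In H3C6 and H4C8 the probe set with the larger change had another GenBank record and the one with the smaller change a RefSeq mRNA. Neither H2BC5 probe set had a RefSeq mRNA, and they differed by 0.944 within the second class. Which part of the mRNA each probe set reads, and whether it reads the form that ends at the stem-loop or a polyadenylated form, was not tested. The suffix gave 4 rises and 8 falls among 19 probe sets with no cross-matching suffix, 2 and 1 among 4 with _s_at, and 1 and 2 among 7 with _x_at. Those with _s_at were the probe sets of H2AC6, H2BC21 and H3C2 and 208180_s_at of H4C8. Those with _x_at were the probe sets of H2AC14, H2BC5, H2BC6, H2BC9, H3C8 and H4C11.

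**Figure D4:**
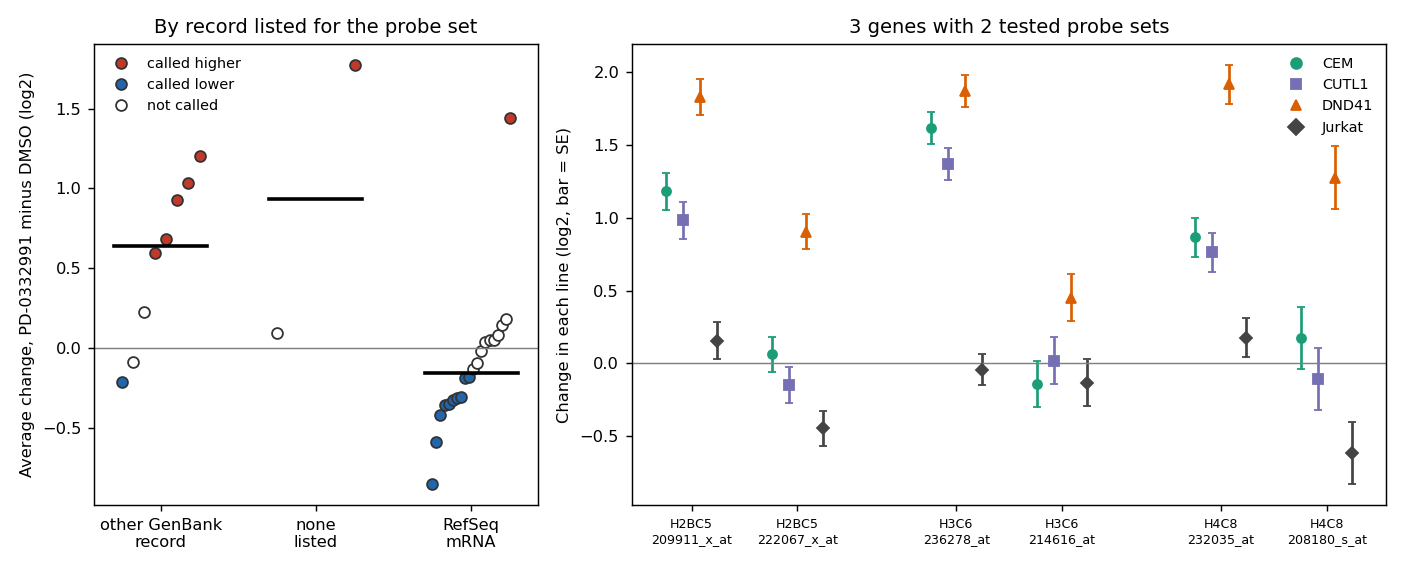
Left, average change (PD-0332991 minus DMSO, log2) of the 30 tested probe sets by the kind of record listed for them, with a bar at the median, and right, change in each line with its SE for both probe sets of H2BC5, H3C6 and H4C8. Medians were 0.64 for other GenBank records and -0.16 for RefSeq mRNAs, and the probe set on the left of each pair has the larger change in all 4 lines.

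H2AC6 and H2BC4 lie head to head, with starts 246 bases apart in RefSeq's annotation of GRCh38.p14, so the H2AC6 promoter printed above spans the space between them. H2AC6 rose. H2BC4 was not called (0.22, adjusted p = 0.105), and its group means in CEM and Jurkat were below the dim level in both treatments. Whether the changes of H2AC6 and H2BC4 differed was not tested. The starts of H2BC21 and H2AC20 are 236 bases apart and those of H2AC25 and H2BC26 230 bases, but neither partner had a tested probe set of its own.

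Of the 20 probe sets that named several of these genes 17 were tested. On average 3 rose and 5 fell, in DND41 9 rose and 1 fell, and in CUTL1 and Jurkat 0 rose and 5 and 4 fell. In CEM 1 rose and 2 fell. Shares of all probe sets called are those given for the single-symbol probe sets, such as 7.55% and 14.7% higher and lower in DND41. Responses differed between lines for 7 of 17 and DMSO levels for 15 of 17, against 6.19% and 63.4% of all probe sets tested.

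A probe set naming 14 H4 genes (205967_at) read 13.91 and 13.96 in PD-0332991 against 14.22 and 14.21 in DMSO in CEM, and 13.56 and 13.59 in PD-0332991 against 14.20 and 14.20 in DMSO in CUTL1. It read 14.05 and 14.05 in PD-0332991 against 14.28 and 14.25 in DMSO in DND41, and 12.78 and 12.73 in PD-0332991 against 13.94 and 13.98 in DMSO in Jurkat. In every line both PD-0332991 arrays were below both DMSO arrays. The DMSO means of CEM, CUTL1 and DND41 (14.22, 14.20 and 14.26) lay near the highest value deposited for any probe set (14.67), and whether the signal was saturated there was not tested. It fell by 0.58 on average (SE 0.03, adjusted p = 7.31e-08), with changes of -0.28 in CEM, -0.63 in CUTL1, -0.21 in DND41 and -1.20 in Jurkat, all called, that differed between lines (F test, adjusted p = 0.000548). The call in DND41 (adjusted p = 0.0333) was lost with no filter on dim probe sets and without any 1 of its 4 arrays or of the Jurkat PD-0332991 arrays, and that in CEM without CEM DMSO replicate 1 or PD-0332991 replicate 1. The other 3 tested probe sets naming these 14 genes were at -0.38, -0.14 and -0.00, the first of these called lower with an adjusted p of 0.0212 and the next with 0.0495.

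A probe set naming 10 H3 genes (206110_at) went the other way. It read 6.52 and 6.28 in PD-0332991 against 5.69 and 5.33 in DMSO in CEM, and 6.12 and 6.33 in PD-0332991 against 5.36 and 5.94 in DMSO in CUTL1. It read 7.19 and 7.70 in PD-0332991 against 6.20 and 6.22 in DMSO in DND41, and 4.03 and 4.39 in PD-0332991 against 4.50 and 3.85 in DMSO in Jurkat. PD-0332991 arrays were above DMSO arrays in CEM, CUTL1 and DND41 and overlapped in Jurkat. It rose by 0.68 (SE 0.13, 1.61-fold), called in CEM and DND41, and its list of genes includes H3C2, H3C7 and H3C6. The CEM call was lost without any 1 of the 4 CEM arrays. Another probe set naming the same genes and H2AC7 (214472_at) was at -0.12 on average and was not called.

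A probe set naming H2AC18 and H2AC19 (214290_s_at) read 9.04 and 9.05 in PD-0332991 against 8.85 and 8.81 in DMSO in CEM, and 10.24 and 10.17 in PD-0332991 against 10.10 and 10.23 in DMSO in CUTL1. It read 10.85 and 10.67 in PD-0332991 against 9.86 and 9.97 in DMSO in DND41, and 8.27 and 8.13 in PD-0332991 against 8.22 and 8.31 in DMSO in Jurkat. In CEM and DND41 the PD-0332991 arrays were above the DMSO arrays, and they overlapped them in CUTL1 and Jurkat. It rose by 0.26 (SE 0.04) on average, and among the lines it was called in DND41, at 0.84.

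Another probe set for H2AC18 and H2AC19 (218280_x_at) read 7.87 and 8.07 in PD-0332991 against 7.78 and 7.48 in DMSO in CEM, and 8.81 and 8.82 in PD-0332991 against 8.59 and 8.82 in DMSO in CUTL1. It read 9.58 and 9.59 in PD-0332991 against 8.55 and 8.66 in DMSO in DND41, and 7.03 and 7.01 in PD-0332991 against 7.28 and 7.03 in DMSO in Jurkat. Here too DND41 stood out, at 0.97 against 0.32 on average (SE 0.06). A probe set for the same genes (218279_s_at) was at 0.01 and was not called.

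A probe set naming H2BC4, H2BC6, H2BC7, H2BC8 and H2BC10 (208490_x_at) read 7.63 and 7.84 in PD-0332991 against 8.20 and 8.04 in DMSO in CEM, and 7.51 and 7.61 in PD-0332991 against 7.83 and 7.69 in DMSO in CUTL1. It read 8.76 and 9.07 in PD-0332991 against 8.37 and 8.27 in DMSO in DND41, and 5.38 and 5.33 in PD-0332991 against 6.13 and 6.0 in DMSO in Jurkat. Only in DND41 were PD-0332991 arrays above DMSO arrays, and in the other lines they were below. The changes were -0.38 in CEM, -0.20 in CUTL1, 0.60 in DND41 and -0.70 in Jurkat, called in CEM, DND41 and Jurkat, and the average of -0.17 had an adjusted p of 0.0351 that was lost under quantile normalization and without any 1 of 9 single arrays. The CEM call was lost likewise without any 1 of 9.

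A second probe set for these 5 H2B genes (208523_x_at) read 7.56 and 7.31 in PD-0332991 against 7.53 and 7.53 in DMSO in CEM, and 7.44 and 7.20 in PD-0332991 against 7.73 and 7.56 in DMSO in CUTL1. It read 8.76 and 8.98 in PD-0332991 against 8.21 and 8.37 in DMSO in DND41, and 5.80 and 5.92 in PD-0332991 against 6.52 and 6.44 in DMSO in Jurkat. Its changes of -0.09 in CEM, -0.32 in CUTL1, 0.58 in DND41 and -0.62 in Jurkat were called in DND41 and Jurkat, in opposite directions, and the lines differed (F test, adjusted p = 0.00872). The DND41 call was lost without DND41 DMSO replicate 1.

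The probe set naming H3C4 and H2AC7 (214522_x_at) read 5.59 and 5.58 in PD-0332991 against 5.75 and 5.70 in DMSO in CEM, and 5.70 and 5.48 in PD-0332991 against 5.83 and 6.07 in DMSO in CUTL1. It read 6.88 and 6.84 in PD-0332991 against 6.21 and 6.47 in DMSO in DND41, and 5.13 and 5.20 in PD-0332991 against 4.99 and 5.06 in DMSO in Jurkat. In DND41 and Jurkat the PD-0332991 arrays were above the DMSO arrays, and they were below them in CEM and CUTL1. Its changes of -0.14 in CEM, -0.36 in CUTL1, 0.52 in DND41 and 0.14 in Jurkat were called in CUTL1 and DND41, with an F test between lines at adjusted p = 0.0256. The CUTL1 call was lost without any 1 of 8 single arrays, and the DND41 call without DND41 DMSO replicate 1.

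The genes whose products make and process histone mRNA fell more often than they rose. A list of 46 gene symbols for its control, transcription and processing, SRRT and ARS2 both among them, had 43 with a probe set of their own, of which 42 were tested. Each gene was read by its brightest probe set. On average 7 rose and 22 fell, with a median of -0.19, against 20.3% and 17.6% of all probe sets and their median of 0.03. In the fit with 1 probe set per gene, 26.6% and 19.9% of all genes were called higher and lower. Falls outnumbered rises in each line: 3 rose and 19 fell in CEM, 4 and 19 in CUTL1, 1 and 23 in DND41 and 4 and 21 in Jurkat. The list was drawn up with earlier results of these data known.

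The upstream kinase genes led it. CCNE2 and CCNE1, the cyclins E, fell by 4.34 (SE 0.10) and 1.90 (SE 0.07), and CDK2, their kinase, fell by 1.5 (SE 0.05). CDC25A, the phosphatase that activates CDK2, fell by 2.16, and the transcription factor E2F1 fell by 1.15. NPAT, the substrate of cyclin E with CDK2 at histone genes, fell by 0.46 (SE 0.06). HINFP, the factor that binds H4 promoters, rose by 0.21 (SE 0.05).

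Of the processing factors, SLBP, which binds the stem-loop, fell by 1.37 (SE 0.04) and CASP8AP2 (FLASH), which joins NPAT bodies to the U7 particle, fell by 1.26 (SE 0.05). In the 4 lines SLBP changed by -1.45 in CEM, -1.57 in CUTL1, -1.21 in DND41 and -1.26 in Jurkat. LSM11 and ZNF473, both of the U7 particle's processing complex, fell by 0.70 and 0.74, while LSM10, the partner of LSM11, rose by 0.17. ERI1, the exonuclease that trims the histone mRNA end, fell by 0.76. TUT7, which adds uridines in histone mRNA decay, rose by 0.38 (SE 0.04) and NCBP2, a cap-binding subunit, rose by 0.28.

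**Figure D5:**
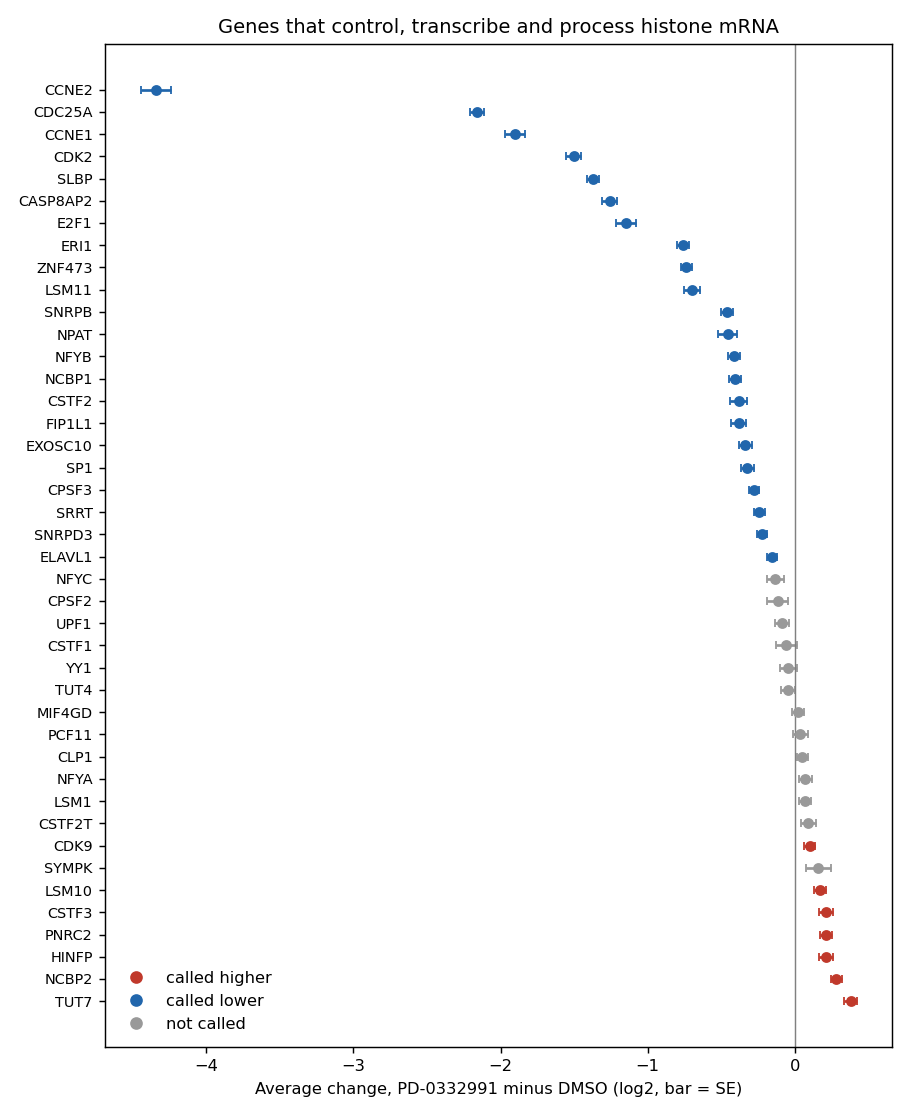
Average change over the 4 lines (PD-0332991 minus DMSO, log2, bar = SE) of the 42 tested genes for the control, transcription and processing of histone mRNA, ordered by size. CCNE2 lies at -4.34 and SLBP at -1.37, and of the 42 genes 22 were called lower and 7 higher.

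Histone genes outside the rule, mostly variants made with a poly(A) tail, fell or were not called. Of 23 listed, 12 had a probe set of their own and 11 were tested, each by its brightest probe set. Of these 0 rose and 6 fell, with a median of -0.21, against 20.3% and 17.6% of all probe sets and their median of 0.03. With 1 probe set per gene the shares were 26.6% and 19.9% of all genes. H2AX, the variant marked at DNA breaks, fell by 1.09 on average, with changes of -0.69 in CEM, -1.68 in CUTL1, -0.67 in DND41 and -1.34 in Jurkat. CENPA, the centromere H3, fell by 0.69, and H2AZ1 fell by 0.33. H1-10, H2AZ2 and MACROH2A1 fell by 0.27, 0.21 and 0.12. H3-3A, a replacement H3, was at -0.54 (SE 0.36) and was not called.

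The 18 dim probe sets averaged 3.07 to 4.57 over all arrays, below the dim level of 4.88, and were not tested. For 15 genes they were the only probe sets with 1 symbol, among them H1-1, H1-5, H2BC3, H3C1 and H4C4. Changes of these genes were therefore not tested with a probe set of their own. H2BC1, a testis-type H2B, averaged 3.09.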

How the data were processed

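The 48 members and both gene lists were chosen with earlier results of these data known. Per the labels' protocols, 5 ng of total RNA was amplified with the Nugen Ovation system, and the type of primer is not given there. Per the submitters' processing notes the authors used RMA, and its version is not given in the sources used here. Intensities were deposited untransformed (4.42 to 26097, medians per array 28.5 to 31.2). The design had assumed log2 values, so log2 was taken of the deposited intensities with no further scaling.

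Genes were named by the platform annotation, and all 42 symbols matched RefSeq. Of 54675 probe sets, 62 controls and 24609 dim ones were left out and 30004 tested. Group means of 8 groups were fitted with limma 3.58.1 in R 4.3.3 (8 residual and 3.17 prior degrees of freedom) on all 16 arrays, with the Benjamini-Hochberg adjustment over all probe sets tested. Array values were given for members with an average change of at least 0.5 that was called, for the 5 with the smallest F test p, and for the brightest of each type. Tests were two-sided. The fit was tested on simulated data. Alternatives were other scalings, no filter, a replicate block, each line as 1 replicate, 1 probe set per gene and leaving out each array. Python 3.11.15, pandas 2.3.3 and matplotlib 3.10.9 were also used. Single-gene probe sets of histones may still bind near-identical family members.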

Additional observations from a re-analysis of the deposited data

Results flagged for a closer look

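The response to PD-0332991 differed between the 4 lines (limma F test, adjusted over 30004 probe sets) for 13 of the 30 tested histone probe sets. For H3C6 (236278_at) the adjusted p of 0.000443 is a description alone, since the probe set was below the dim level in all DMSO arrays and was tested only through its PD-0332991 arrays. Other adjusted p-values were 0.00216 and 0.00526 for the H2BC5 probe sets 209911_x_at and 222067_x_at, 0.00248 and 0.0172 for the H4C8 probe sets 232035_at and 208180_s_at, and 0.00263 for H2AC6. They were 0.00386 for H1-2, 0.00546 for H2BC6, 0.00546 for H2AC14 and 0.00977 for H2AC25. The others were H2BC9 at 0.0111, H3C3 at 0.0280 and H2BC12 at 0.0292. The change was highest in DND41 for 11 of these 13 probe sets, and highest in Jurkat for H2AC25 and H3C3.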

How the results depend on the processing

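Among the counts and the members given in full, no called value turned its direction under the alternatives run on them. The count of histone probe sets called lower on average was 3 with each line as 1 replicate, and the count called higher was 4 with 1 probe set per gene, where 27 histone genes of 13530 were tested. These settings use fewer replicates or fewer probe sets. Quantile normalization, centring and no filter on dim probe sets left the other counts within 1.5 times. Leaving out 1 array at a time gave 7 to 8 rises and 9 to 12 falls on average, 6 throughout and 0 to 3 in CEM, 5 to 7 and 4 to 7 in CUTL1, 10 to 13 and 1 to 5 in DND41, and 2 to 4 and 3 to 9 in Jurkat, 9 to 13 differences between lines and 24 to 27 in DMSO. The lowest counts came without DMSO replicate 2 for falls in CEM and in DND41, without PD-0332991 replicate 2 for rises in Jurkat, and without DMSO replicate 1 for falls in Jurkat. Of 66 changes of the members given in full, with several-symbol probe sets counted, 64 kept their side of the threshold under quantile normalization, 63 under centring, 59 with no filter and 60 under the replicate block. Leaving out 1 array at a time, 977 did, 78 lost the call and 1 gained it. Arrays with the same replicate number deviated together weakly in CEM (0.21), CUTL1 (0.19) and Jurkat (0.15) and oppositely in DND41 (-0.32), so the numbers were not taken to pair samples. With the replicate block 7 rose and 10 fell on average, and responses differed for 10. Levels near the dim level of 4.88 limit the folds of H2BC21, H3C6, H3C2 and H4C8 (232035_at), and 18 dim probe sets gave no test.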
